A study of Mus musculus with 6 samples.

Results

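The genes examined were 36 genes of glycolysis and of the response to low oxygen, chosen by symbol, in E0771 mouse mammary tumour cells and in E0771-HML2, a derivative of them recovered from the lungs of mice. A gene was measured through the probe sets that the array annotation assigned to its symbol and to no other. Where a gene had several, the brightest by mean log2 signal represented it. Of the 36 genes, 34 had such a probe set and 31 were tested, out of 9361 genes tested in all. Of the other 3, Aldoc and Car9 were too dim, and Gapdh, which was bright, was the single symbol only on control probe sets. The members were grouped by role: 4 transporters of glucose and lactate, 16 enzymes from hexokinase to lactate dehydrogenase, 3 regulators of flux, hypoxia-inducible factor 1 alpha with 2 of its hydroxylases, and 10 further genes known as targets of the factor.

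Glycolysis turns glucose into pyruvate in the cytosol, and lactate dehydrogenase reduces pyruvate to lactate, which leaves the cell through monocarboxylate transporters. Hypoxia-inducible factor (HIF) is a transcription factor whose alpha subunit is hydroxylated by oxygen-dependent prolyl hydroxylases and then degraded. When oxygen is short the subunit is stable, binds short DNA elements with the core RCGTG and raises transcription of glucose transporters, of glycolytic enzymes, of pyruvate dehydrogenase kinase 1 and of genes that act outside metabolism. Many tumour cells run glycolysis at a high rate also where oxygen is plentiful.

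The study compared 3 arrays of parental E0771 cells, which had not been selected, with 3 arrays of E0771-HML2 cells, 1 array for each culture. E0771 cells come from a mammary tumour of the C57BL/6 strain. For the HML2 cells, E0771 cells had been injected into the fat pad of syngeneic animals and taken back from lung metastases, and this was done again to give a second-generation population. Both groups were grown as dishes of cancer cells for 3 days in DMEM with 10% fetal bovine serum and antibiotics, with no low-oxygen treatment named in the labels, and 15 ug of total RNA was labelled for each Affymetrix Mouse Genome 430 2.0 array. The labels call the cultures biological replicates 1 to 3 but do not say whether the HML2 cultures go back to different animals, so the p-values cover only how these cultures varied.

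All 6 arrays had the same trimmed mean signal of 500, and 39.7 to 41.6% of their probe sets reached a signal of 100. Bacterial control probe sets, a gauge of background, read 1.97 to 36.2. HML2 replicate 1 stood apart from the other HML2 arrays: it differed from their mean by more than 0.5 (log2) for 25.5% of all genes tested, against 7.85 to 9.91% for the other HML2 arrays. Where leaving it out changed the call or the sign of a named gene's difference, or moved that difference by more than 1.5 times, the value without it is given. The ratio of 3' to 5' signal of Gapdh was 0.801 ± 0.002 in parental and 0.792 ± 0.023 in HML2 arrays (SD, n = 3; exact two-sided permutation p = 0.7), and that of beta-actin was 1.46 ± 0.06 and 1.38 ± 0.01 (p = 0.1, the smallest that 3 against 3 arrays allow). Of 7 markers of mammary epithelium, 2 had a mean signal of at least 100 (Krt8 and Epcam), and Cdh1, Krt5, Krt14 and Krt19 stayed at or below 61.2 on every array. The summed signal of these 7 markers was 1289 to 1402 in parental and 3840.3 to 5123 in HML2 arrays, and it was mostly Krt8 (1034 to 1154 and 3592 to 4875). Epcam lay the other way, at 108 to 157 in parental and 68.9 to 98.9 in HML2 arrays. Krt18 (25.4 to 41.1 in parental and 59.7 to 100.5 in HML2 arrays) and Krt5 (12.6 to 37.6 and 53.9 to 61.2) were dim and higher in HML2 arrays without overlap. The 7 leukocyte markers summed to 411 to 506 and 230.2 to 504, and 2 of them had a mean signal of at least 100. Lyz2 read 174.6 to 225.6 in parental and 69.7 to 85.8 in HML2 arrays, with no overlap. Csf1r reached 139.9 in parental and 125.3 in HML2 arrays, and Cd68 reached 75.2 and 215.5. Ptprc and Cd3e stayed at or below 24.9. Markers of lung epithelium summed to 149.6 to 247.5 and 141.1 to 254.5, with a highest signal of 148.8 (Sftpb, in HML2 arrays). The 4 endothelial markers summed to 71.2 to 161.5 and 109.0 to 157.6, and 0 of them had a mean signal of at least 100. One of these, Cdh5, read 8.91 to 32.1 in parental and 36.5 to 72.4 in HML2 arrays. Of the 4 fibroblast markers, which summed to 2376 to 4426 and 1139 to 2075, Pdgfra and Pdgfrb were bright, and Dcn and Lum did not exceed 62.4. The part of these differences in the results was not tested, and in bulk RNA fewer cells of a kind and less RNA per cell cannot be told apart.

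In HML2 cells 3 members rose (Slc2a3, Slc16a1 and Ddit4), 3 fell (Pfkm, Pdk1 and Higd1a) and 25 were not called. A gene was called at a Benjamini-Hochberg adjusted p below 0.05 in limma's moderated test over all genes, at which 12.3% of all genes tested were called higher and 14.9% lower. The members' shares were 9.68% in each direction. The median difference of the 31 members was -0.08, and their median absolute difference was 0.26, beside -0.02 and 0.30 over all genes tested. Differences here and below are of log2(signal + 50), HML2 minus parental, and fold changes are on that scale, which understates the change of dim genes. The arrays of the groups did not overlap for 12 members, 7 with HML2 above and 5 with HML2 below, or 38.7% of them against 44.4% of all genes tested. The median of all members moved to -0.02 without parental replicate 2 and to -0.14 without HML2 replicate 2. The count of members called lower was 1 without parental replicate 1, parental replicate 2, HML2 replicate 2 or HML2 replicate 3. It was 0 without parental replicate 3 and 4 without HML2 replicate 1. Over all genes the count called lower was 1395 with all arrays, 795 without parental replicate 3 and 1845 without HML2 replicate 1.

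**Figure D1:**
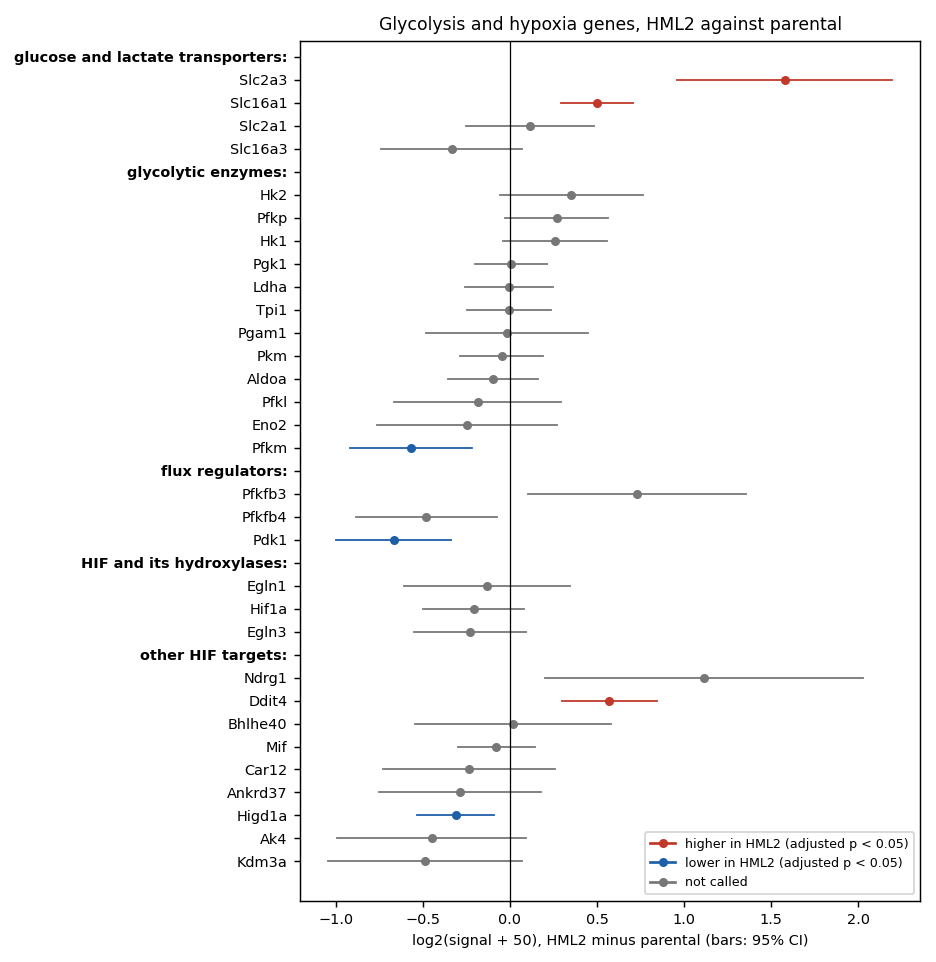
Difference of log2(signal + 50), HML2 minus parental, for the 31 tested genes by role, with the 95% confidence interval of each (n = 3 arrays a group). Slc2a3 at 1.58 has the highest value and Pdk1 at -0.67 the lowest, and the intervals of most glycolytic enzymes span 0.

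HIF binds elements with the core ACGTG or GCGTG, so the proximal promoters are shown for a member that rose and carries lactate (Slc16a1), for another that rose (Ddit4), for one that fell (Pdk1) and for the classical HIF target Ldha, whose difference was near 0. Each is the 250 bases before the most upstream start in RefSeq's GRCm38.p6 annotation, 5′ to 3′ on the gene's strand, with capitals for ACGTG or GCGTG on either strand (CACGT or CACGC in the letters shown). Overlapping matches were joined into 1 site, and a match on both strands, CACGTG, is also an E-box. The windows are chr3:104638414-104638663 (+ strand) for Slc16a1, chr10:59951771-59952020 (- strand) for Ddit4, chr2:71872974-71873223 (+ strand) for Pdk1 and chr7:46845554-46845803 (+ strand) for Ldha.
Slc16a1: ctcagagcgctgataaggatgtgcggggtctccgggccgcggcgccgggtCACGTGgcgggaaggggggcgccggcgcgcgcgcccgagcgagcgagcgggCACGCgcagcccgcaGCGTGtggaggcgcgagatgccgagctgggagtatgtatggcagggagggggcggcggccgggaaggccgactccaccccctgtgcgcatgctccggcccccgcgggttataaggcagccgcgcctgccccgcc
Ddit4: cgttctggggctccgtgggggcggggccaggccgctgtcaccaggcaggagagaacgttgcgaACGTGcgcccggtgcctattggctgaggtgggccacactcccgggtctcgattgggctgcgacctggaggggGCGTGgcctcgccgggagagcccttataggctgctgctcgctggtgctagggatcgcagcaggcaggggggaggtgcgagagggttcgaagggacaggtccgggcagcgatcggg
Pdk1: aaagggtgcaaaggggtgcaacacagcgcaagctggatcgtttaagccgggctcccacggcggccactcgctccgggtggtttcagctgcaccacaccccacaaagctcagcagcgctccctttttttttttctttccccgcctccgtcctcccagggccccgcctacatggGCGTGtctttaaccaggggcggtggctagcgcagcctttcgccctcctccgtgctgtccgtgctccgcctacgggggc
Ldha: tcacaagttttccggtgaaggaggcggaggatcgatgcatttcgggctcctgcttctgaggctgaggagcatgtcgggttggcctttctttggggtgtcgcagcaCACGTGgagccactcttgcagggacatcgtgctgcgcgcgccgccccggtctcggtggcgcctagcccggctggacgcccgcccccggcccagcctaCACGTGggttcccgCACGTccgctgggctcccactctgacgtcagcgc

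These windows held 3 sites for Slc16a1, 2 for Ddit4, 1 for Pdk1 and 3 for Ldha. The site nearest the start began 134 bases before it for Slc16a1, 115 for Ddit4, 78 for Pdk1 and 34 for Ldha. Of the 36 members, 33 had a promoter in the table, 28 of them tested, and 21 of those 28 (75%) held a site. All 5 called members with a promoter (Slc16a1, Ddit4, Pfkm, Pdk1 and Higd1a) held one, as did 16 of the 23 members that were not called (69.6%). The share was 59.6% of the 7696 tested genes with a promoter and 38.6% of all 27025 genes in the table. A match describes letters and does not show that the factor binds there.

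Glucose and lactate transport held 2 of the 3 members that rose. Slc2a3, which encodes the high-affinity glucose transporter GLUT3, read 515, 874 and 437 on the parental arrays and 2521, 1570.1 and 1572 on the HML2 arrays. Every HML2 array lay above every parental array, and HML2 replicate 1 was the highest. The means were 609 ± 233 and 1888 ± 549 (SD, n = 3), a difference of 1.58 (SE 0.27, 2.98-fold, adjusted p = 0.0040). It was 1.36 without HML2 replicate 1. The other bright probe set of Slc2a3 gave 1.06, with signals of 166 to 261 in parental and 431 to 670.1 in HML2 arrays. Its remaining probe sets were below the filter, with signals in the range of the bacterial controls. One read 1.46 to 21.8 over all arrays and gave 0.25. The other went the opposite way, at 26.1 to 31.6 in parental and 3.26 to 5.25 in HML2 arrays (-0.55).

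Slc16a1 encodes the monocarboxylate transporter MCT1, which moves lactate and pyruvate across the plasma membrane. It was a bright gene, at 11189, 10794 and 9894 in parental and 15543, 15039 and 14501 in HML2 arrays. The groups were apart and the spread within each was small. Slc16a1 rose by 0.50 (SE 0.09, 1.41-fold, adjusted p = 0.0049).

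The paralogs of these transporters were not called. Slc2a1 encodes GLUT1, the basal glucose transporter and a classical HIF target, and read 6489, 5625 and 6175 in parental and 8568, 5813 and 5780 in HML2 arrays. One HML2 array (replicate 1) was high and the other two lay among the parental values. Its difference was 0.12 (95% confidence interval -0.25 to 0.49, adjusted p = 0.63) with all arrays and -0.07 without HML2 replicate 1. It was 0.06 without parental replicate 2 and 0.21 without either of the other HML2 arrays. Slc16a3, which encodes the lactate exporter MCT4, was dim at 190.0 to 234 in parental and 132 to 187 in HML2 arrays, so all HML2 arrays lay below. Its difference of -0.33 did not pass (interval -0.74 to 0.07, adjusted p = 0.20). Intervals here are not adjusted for the number of genes.

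**Figure D2:**
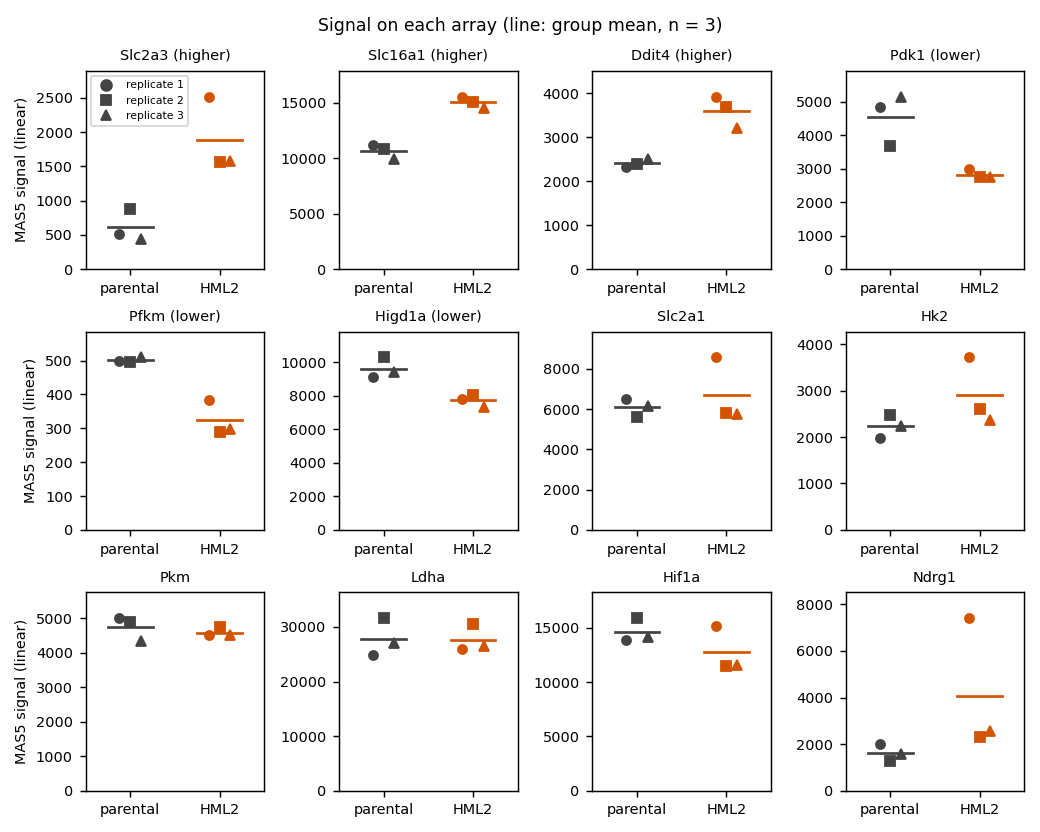
MAS5 signal (linear axis from 0) on each parental and HML2 array for 12 genes, with a line at each group mean (n = 3) and a marker shape for each replicate number. The HML2 arrays of Slc2a3, Slc16a1 and Ddit4 all lie above the parental arrays, those of Pdk1, Pfkm and Higd1a all lie below, and those of Ldha and Pkm lie among them.

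Along the glycolytic enzymes, 1 of 12 tested members fell (8.33%, beside 14.9% of all genes tested), 0 rose and 11 were not called. Their median difference was -0.01 and their median absolute difference 0.14. Pfkm, the muscle form of phosphofructokinase, which commits sugar to glycolysis, read 500, 495 and 509 in parental and 385, 290 and 297 in HML2 arrays. The parental arrays were nearly alike and all HML2 arrays lay below them. Pfkm fell by 0.57 (SE 0.15, adjusted p = 0.026), and it lost the call when any array other than HML2 replicate 1 was left out (adjusted p up to 0.097), and also without the signal filter (0.061). Pfkl and Pfkp, the liver and platelet forms, gave -0.19 (adjusted p = 0.55) and 0.27 (adjusted p = 0.16) with all arrays, and 0.06 and 0.14 without HML2 replicate 1. Pfkl gave -0.34 without HML2 replicate 2. Pfkp signals were 5966 to 6081 in parental and 6323 to 8719.6 in HML2 arrays, above the parental ones throughout.

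The hexokinases, which trap glucose by phosphorylation, had positive differences that did not pass. Hk2, the form induced in many tumours and by HIF, read 1971, 2473 and 2237 in parental and 3715, 2608 and 2376 in HML2 arrays. HML2 replicate 1 stood well above the rest, and the groups overlapped. Its difference was 0.35 (interval -0.06 to 0.76, adjusted p = 0.18) and 0.16 without that array. Hk1 gave 0.26 (adjusted p = 0.18), at 1277 to 1503 in parental and 1531 to 1856 in HML2 arrays, with no overlap.

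Among the members, no tested enzyme below phosphofructokinase was called. Ldha, the lactate dehydrogenase subunit that favours lactate formation, read 24849.6, 31603 and 26984 in parental and 25934, 30532 and 26514 in HML2 arrays. The groups covered the same range, with a difference of -0.00 (interval -0.26 to 0.25, adjusted p = 0.98). Pkm, the pyruvate kinase of most tissues and tumours, read 4996, 4888 and 4338 in parental and 4497, 4728 and 4502 in HML2 arrays. Its difference was -0.05 (interval -0.29 to 0.19, adjusted p = 0.77). The annotation does not say which of its splice forms the probe set reads. The differences of aldolase A (Aldoa), triosephosphate isomerase (Tpi1), phosphoglycerate kinase (Pgk1) and phosphoglycerate mutase (Pgam1) were -0.10, -0.01, 0.01 and -0.02. Their adjusted p-values ran from 0.56 to 0.97. The interval was narrow for Pgk1 (-0.20 to 0.21) and wider for Pgam1 (-0.48 to 0.45). Another bright probe set of Pgk1 gave 0.31, with 12817, 12589 and 14566 in parental and 17393, 17499 and 14622 in HML2 arrays, which lay above throughout, and the mean of its probe sets gave 0.12 (adjusted p = 0.32). Without HML2 replicate 1 the differences were -0.16 for Aldoa, 0.08 for Tpi1, -0.03 for Pgk1, 0.15 for Pgam1 and 0.04 for Ldha. Leaving out other arrays also turned or moved these small differences: their ranges are -0.16 to -0.01 for Aldoa, -0.08 to 0.08 for Tpi1, -0.04 to 0.06 for Pgk1, -0.20 to 0.15 for Pgam1, -0.11 to -0.01 for Pkm and -0.08 to 0.09 for Ldha. Eno2, the neuronal enolase, was the dimmest tested member, at 129 to 204 in parental and 112 to 189 in HML2 arrays, with -0.25 (adjusted p = 0.45). It gave -0.43 without HML2 replicate 1, -0.14 without HML2 replicate 2, -0.15 without parental replicate 1 and -0.41 without parental replicate 2.

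Gapdh, which oxidises glyceraldehyde 3-phosphate, had a single symbol only on the array's control probe sets and so was outside the fit. Its 5' control probe set, the brightest, read 28533, 29676 and 26309 in parental and 32099, 33436 and 28431 in HML2 arrays. The groups overlapped, and HML2 was higher in each of the 3 pairs of arrays with the same replicate number. In a fit with the mouse control probe sets kept, a choice made after the data were seen, its difference was 0.15 (interval -0.05 to 0.36, adjusted p = 0.25), and it was called with the replicate number as a block (adjusted p = 0.027). The middle control probe set gave 0.23, at 20764 to 23634 in parental and 25148 to 27853 in HML2 arrays with no overlap, and the 3' one gave 0.13. Gpi1 and Eno1 matched no probe set with a single symbol and are not analysed here. Aldoc was below the signal filter with mean signals of 13.2 and 53.0 on its probe sets.

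Of the regulators of flux only Pdk1 was called, and the differences were not all of the same sign. Pdk1, the kinase that inhibits pyruvate dehydrogenase and so keeps pyruvate out of the mitochondrial cycle, read 4842, 3667 and 5156 in parental and 2986, 2737 and 2748 in HML2 arrays. All HML2 arrays lay below the parental ones, among which replicate 2 was the lowest. Pdk1 fell by 0.67 (SE 0.14, 0.63-fold, adjusted p = 0.011). Its other probe sets above the filter gave -0.79 and -1.37, and the call was lost in 1 of 16 alternatives, without parental replicate 3 (adjusted p = 0.057).

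Pfkfb3 and Pfkfb4 make and break fructose 2,6-bisphosphate, the activator of phosphofructokinase, and both are known to respond to hypoxia. Pfkfb3 read 146, 199 and 174 in parental and 526, 235 and 253 in HML2 arrays. All HML2 arrays lay above, replicate 1 by far the most. The difference of 0.73 (interval 0.11 to 1.36) did not pass (adjusted p = 0.082), and it was 0.41 without HML2 replicate 1. Pfkfb4 read 194 to 266 in parental and 132 to 171 in HML2 arrays, with no overlap and a difference of -0.48 (interval -0.89 to -0.07, adjusted p = 0.079). Quantile normalisation called Pfkfb3 (adjusted p = 0.049), and eBayes without a trend called Pfkfb4 (0.047).

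Hif1a and the hydroxylases were not called. Hif1a, the oxygen-regulated subunit itself, read 13889, 15871 and 14101 in parental and 15195, 11449.7 and 11556 in HML2 arrays. HML2 replicate 1 lay among the parental arrays and the other two lay below them. The difference was -0.21 (interval -0.50 to 0.08, adjusted p = 0.26), and without HML2 replicate 1 it was -0.34 and was called (adjusted p = 0.026). It was -0.14 without HML2 replicate 2. The arrays measure the messenger RNA, whereas the factor is controlled mainly through the stability of its protein. Egln1, the main prolyl hydroxylase, gave -0.13 (adjusted p = 0.68), and its second probe set gave 0.39. It gave 0.11 without HML2 replicate 1, and the other fits without 1 array gave -0.27 to -0.07. Egln3, a hydroxylase that HIF itself induces, gave -0.23 (adjusted p = 0.26), which was -0.11 without parental replicate 1.

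Among the other HIF targets, 1 of 9 tested members rose and 1 fell (11.1% each, beside 12.3% and 14.9% of all genes tested). Their median was -0.24, and -0.02 without parental replicate 2. Ddit4 (REDD1), an inhibitor of mTORC1 induced by hypoxia and other stresses, read 2312, 2393 and 2499 in parental and 3922, 3682 and 3206 in HML2 arrays. The groups were far apart compared with the spread within them. Ddit4 rose by 0.57 (SE 0.12, 1.49-fold, adjusted p = 0.0090).

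Higd1a, a protein of the inner mitochondrial membrane, read 9096, 10293 and 9437 in parental and 7788, 8045 and 7340.2 in HML2 arrays. All HML2 arrays lay below. It fell by 0.31 (SE 0.10, adjusted p = 0.043), and 8 of 16 alternatives lost the call. It was lost when any array other than HML2 replicate 1 was left out (adjusted p up to 0.15), without the signal filter (0.083), with median centring (0.090) and without the trend (0.095). A dimmer probe set of Higd1a differed far more, by -1.71, with 658, 793 and 759 in parental and 138, 269 and 179.6 in HML2 arrays.

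Ndrg1, a stress-responsive gene often used as a readout of hypoxia, read 2022, 1267 and 1589.9 in parental and 7403, 2291 and 2560.0 in HML2 arrays. Every HML2 array lay above the parental ones, and replicate 1 lay far above the other two. The difference of 1.12 (SE 0.40, interval 0.20 to 2.03) missed the threshold (adjusted p = 0.071). It was called with the replicate number as a block (adjusted p = 0.0056), without HML2 replicate 1 at a difference of 0.59 (0.028) and without HML2 replicate 2 at a difference of 1.42 (0.040). All 5 probe sets of Ndrg1 had positive differences, from 0.63 to 1.12.

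The remaining targets were not called. Kdm3a, a histone demethylase, read 2478, 2753 and 2713 in parental and 1209, 2579 and 2099.8 in HML2 arrays. Its difference was -0.49 (adjusted p = 0.17), and -0.18 without HML2 replicate 1, the lowest array. Ak4, a mitochondrial adenylate kinase, showed the same order of arrays, with 1708, 2007 and 1841 in parental and 883, 1838 and 1474 in HML2 arrays. Its difference was -0.45 (adjusted p = 0.20), and -0.16 without HML2 replicate 1. Car12, a carbonic anhydrase of the cell surface, gave -0.24, and Ankrd37, an ankyrin repeat protein, gave -0.29 (adjusted p = 0.46 and 0.33). Without parental replicate 2 they gave -0.02 and -0.13, Car12 gave -0.41 without parental replicate 1 and -0.15 without HML2 replicate 3, and Ankrd37 gave -0.17 without HML2 replicate 1. Bhlhe40, a transcriptional repressor, gave 0.02 (interval -0.55 to 0.58, adjusted p = 0.97), 0.14 without HML2 replicate 1, and -0.17 to 0.26 over all fits without 1 array. Mif, a cytokine, was bright and even, at 24278 to 29124 in parental and 23513 to 27143 in HML2 arrays, with -0.08 (interval -0.30 to 0.14, adjusted p = 0.59) and -0.14 to -0.01 over the fits without 1 array. Car9, a carbonic anhydrase often used as a hypoxia marker, stayed at 31.0 to 53.0 on all 6 arrays and below the filter.

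HML2 replicate 1 lay more than 0.5 (log2) away from the mean of its group's other arrays for 11 of the 31 members, or 35.5%, beside 25.5% of all genes tested. It was higher for 6 of them: Ndrg1 (1.59), Pfkfb3 (0.97), Slc2a3 (0.67), Hk2 (0.57), Slc2a1 (0.56) and Eno2 (0.53). It was lower for the other 5, which were Kdm3a (-0.92), Ak4 (-0.86), Egln1 (-0.73), Pfkl (-0.73) and Pgam1 (-0.51). Known HIF targets among the members lay on both sides of it. Of the called members, Slc2a3 is the only one among these 11. Among the tested hypoxia-induced genes outside the members, replicate 1 was higher by more than 0.5 for Ero1a (1.39), Rragd (0.87), Vegfa (0.82), Mxi1 (0.70), P4ha1 (0.66) and Adm (0.64). The lowest value in that list of 13 was -0.03 (Fam162a). Over all 9361 genes tested, replicate 1 was higher by more than 0.5 for 1362 and lower for 1028. Of the genes named here, parental replicate 1 also lay more than 0.5 from the mean of its group's other arrays for Rragd (1.45), Pgam1 (-0.55) and Adm (-0.63). For Adm this was on the opposite side. Mxi1 and Adm, neither called, differed from parental by -0.02 and -0.19, and by -0.26 and -0.40 without HML2 replicate 1. The cause was not tested. For HML2 replicate 2 and replicate 3 the same measure passed 0.5 for 12.9% and 3.23% of the members, and for parental replicate 1 for 9.68%.

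**Figure D3:**
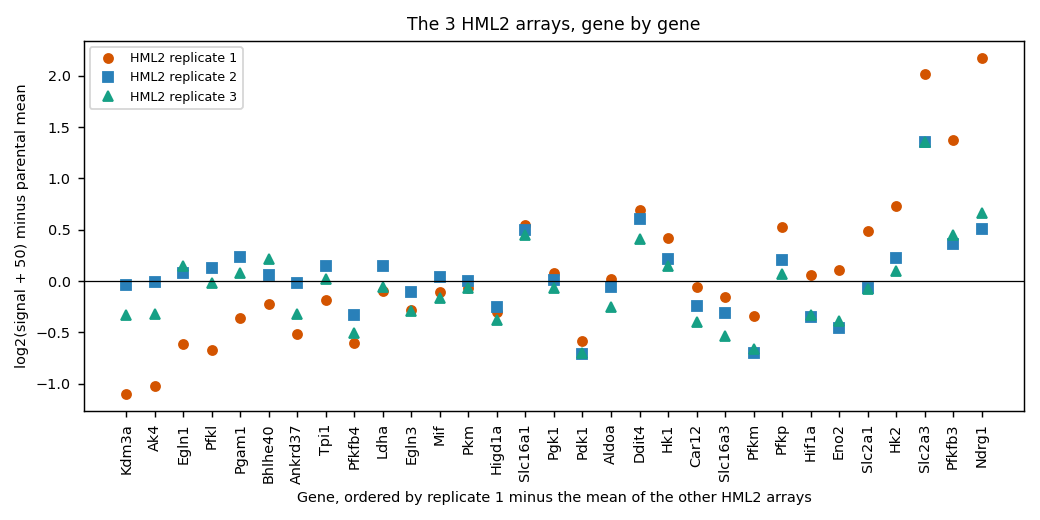
log2(signal + 50) of each HML2 array minus the parental mean, for the 31 tested genes, ordered by how far replicate 1 lies from the mean of the other HML2 arrays. Replicate 1 lies apart at both ends of the order, from Kdm3a (-0.92) to Ndrg1 (1.59).

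Several probe sets above the filter were available for 14 members. For 4 of them, Egln1, Pfkl, Slc2a1 and Tpi1, the probe sets differed in sign, and none of these genes was called. For the 3 called members with several, Slc2a3, Pdk1 and Higd1a, all had the sign of the representative, with sizes that spread from -0.67 to -1.37 for Pdk1 and from -0.31 to -1.71 for Higd1a.

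**Figure D4:**
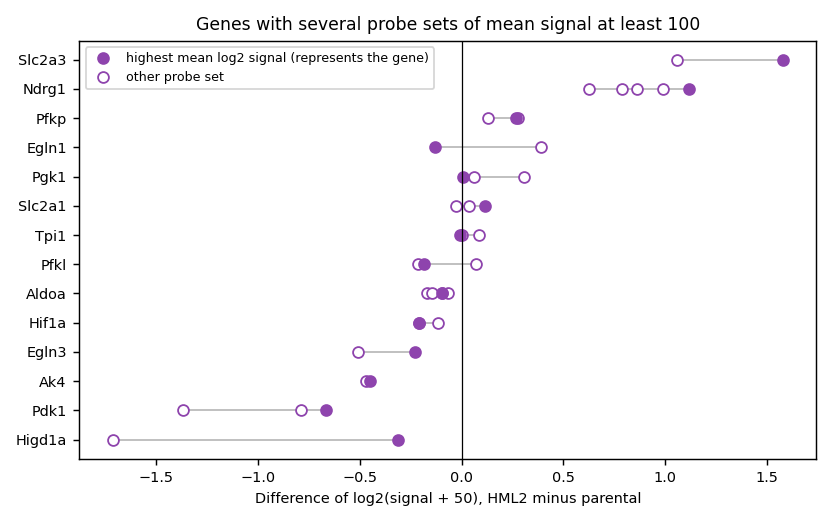
Difference of log2(signal + 50), HML2 minus parental, for every probe set above the filter of the 14 genes with several. Filled points mark the probe set that represents the gene, and the probe sets of Pdk1, Higd1a, Ndrg1 and Slc2a3 keep 1 sign while those of Egln1 lie at -0.13 and 0.39.

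Differences between paralogs were compared on each array for 7 pairs, with exact two-sided permutation tests adjusted over the pairs. With 3 against 3 arrays no p could fall below 0.1, so no pair could pass. The 3 pairs at that lowest p (adjusted 0.23) were Slc2a1 against Slc2a3, where the log2 difference between the paralogs shifted by -1.46 (SE 0.33), Pfkfb4 against Pfkfb3, with a shift of -1.21 (SE 0.41), and Slc16a3 against Slc16a1, with a shift of -0.83 (SE 0.09). In each of them the groups did not overlap. The shifts were smaller for Hk2 against Hk1 (0.09, p = 0.7), Pfkp against Pfkl (0.45, p = 0.3), Pfkm against Pfkl (-0.38, p = 0.4) and Egln3 against Egln1 (-0.10, p = 0.6) in the same exact permutation test. Without HML2 replicate 1 the shifts of these 4 pairs were -0.02, 0.08, -0.74 and -0.31, and those of the first 3 pairs were -1.43, -0.82 and -0.90.

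Further genes of the same pathways were taken from 5 lists outside the members, with 47 of their 66 genes tested. The lists were chosen with earlier results of these data known, so their shares are not an independent look at the pathways. Of the 47 genes, 3 rose and 15 fell, or 6.38% and 31.9%, beside 12.3% and 14.9% of all genes tested, and their median difference was -0.25. The count that fell was 7 without parental replicate 1 or parental replicate 3 and 9 without parental replicate 2. It was 8 without HML2 replicate 3 and 8 without the signal filter. Over all genes the count called lower was 1395 as reported, and 948, 795, 1076, 956 and 1241 in those fits, in that order. With the replicate number as a block, 8 rose and 18 fell. It added Dlat, Ero1a, Rragd, Taldo1 and Tkt to the former and Bsg, Insig2 and Pgls to the latter. Over all genes tested the block called 1670 higher and 1831 lower, beside 1155 and 1395 without it. Without HML2 replicate 1, Bsg (-0.43, adjusted p = 0.030), Insig2 (-0.66, 0.012) and Pgls (-0.62, 0.015) were called lower in the unblocked limma fit. Taldo1 went from 0.35 to 0.19 and was not called.

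Of 14 tested genes of further glycolysis and pyruvate entry, 1 rose and 5 fell (7.14% and 35.7%, beside 12.3% and 14.9% of all genes tested). Hkdc1, a hexokinase relative, read 429, 391 and 322 in parental and 129.9, 117 and 117 in HML2 arrays and fell by 1.32 (adjusted p = 0.0010). Eno3, the muscle enolase, fell by 1.18 (adjusted p = 0.0013). Pdk3, a paralog of Pdk1 with the same role, read 2771, 2842 and 2720.0 in parental and 1308, 1500.2 and 1334 in HML2 arrays and fell by 0.99 (adjusted p = 7.3e-04). Pfkfb2, a paralog of Pfkfb3, fell by 0.71 (adjusted p = 0.035), and its difference without HML2 replicate 1 was -0.63 and not called (adjusted p = 0.053). Pdha1, the catalytic subunit of pyruvate dehydrogenase that these kinases phosphorylate, fell by 0.32 (adjusted p = 0.046). Mpc1, a subunit of the mitochondrial pyruvate carrier, rose by 0.48 (adjusted p = 0.023). Hkdc1, Eno3 and Pdk3 stayed called whichever array was left out, whereas Pfkfb2, Pdha1 and Mpc1 did not.

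In the pentose phosphate pathway, which makes ribose and NADPH from glucose 6-phosphate, 1 of 6 tested genes rose (16.7%) and 0 fell. The shares of all genes tested were 12.3% higher and 14.9% lower. Rpia, ribose 5-phosphate isomerase, rose by 0.81 from 1060 ± 74.3 to 1903 ± 141 (SD, n = 3; adjusted p = 0.0025). Tkt, transketolase, gave 0.17 (adjusted p = 0.28, and 0.029 with the replicate block), and 0.10 without HML2 replicate 1. Of 6 tested glycogen genes 1 rose and 3 fell (16.7% and 50%, beside the same shares of all genes tested). The phosphoglucomutase genes Pgm2 and Pgm1 moved apart, by 0.80 (adjusted p = 0.0093) and -0.50 (adjusted p = 0.020). These symbols are as the RefSeq gene table gives them, and they may have been exchanged between annotation releases, so which of the enzymes rose is uncertain. Ugp2, which makes UDP-glucose, and Gys1, glycogen synthase, fell by 0.51 (adjusted p = 0.036) and 0.49 (adjusted p = 0.047). Rpia and Pgm2 stayed called whichever array was left out, and Pgm1, Ugp2 and Gys1 did not.

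Of 8 tested genes that control HIF, 0 rose and 2 fell (25%, beside 14.9% of all genes tested called lower). Crebbp, a coactivator of HIF and many other factors, fell by 0.61 (adjusted p = 0.0063). Egln2, the third prolyl hydroxylase, read 963, 1024 and 1198 in parental and 332, 763 and 697 in HML2 arrays and fell by 0.85 (adjusted p = 0.048). Its lowest value was on HML2 replicate 1, without which the difference was -0.51 (adjusted p = 0.017). Crebbp stayed called whichever array was left out, and Egln2 stayed called in 2 of those 6 fits.

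Of 13 tested hypoxia-induced genes outside the members, 0 rose and 5 fell (38.5%), with a median of -0.39. Over all genes tested 12.3% were called higher and 14.9% lower, with a median of -0.02. This list too was chosen with earlier results known. Bnip3, a mitochondrial protein of mitophagy and cell death, read 3894, 3337 and 3685 in parental and 1207, 1388 and 933 in HML2 arrays, and fell by 1.60 (SE 0.16, adjusted p = 3.5e-04). P4ha2 and P4ha1, catalytic subunits of collagen prolyl 4-hydroxylase, fell by 1.20 (adjusted p = 9.2e-04) and 0.66 (adjusted p = 0.037). Fam162a, a mitochondrial protein, read 12175, 12546 and 11372 in parental and 6931, 7432 and 6772 in HML2 arrays and fell by 0.77 (adjusted p = 8.6e-04). Narf fell by 0.89 (adjusted p = 0.020). Bnip3, P4ha2 and Fam162a stayed called whichever array was left out, and P4ha1 and Narf did not. Vegfa, the angiogenic growth factor, gave 0.07 (interval -0.47 to 0.61, adjusted p = 0.85) and -0.20 without HML2 replicate 1. Ero1a, an oxidase of the endoplasmic reticulum, gave 0.70 (adjusted p = 0.16, and 0.036 with the replicate block), with 6773 on HML2 replicate 1 against 2512 and 2605 on the other HML2 arrays and 1958 to 2439 in parental arrays. Without HML2 replicate 1 its difference was 0.24.

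**Figure D5:**
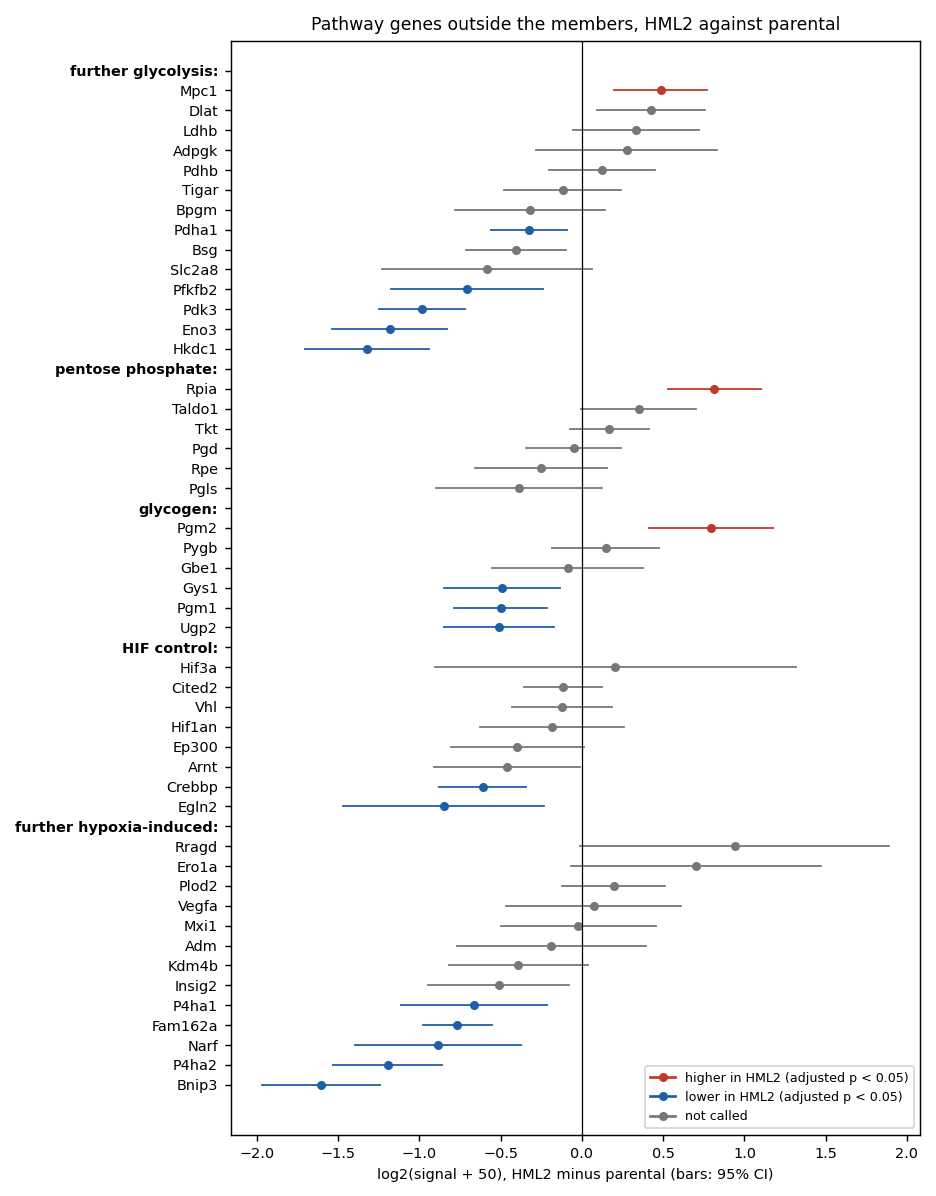
Difference of log2(signal + 50), HML2 minus parental, with 95% confidence intervals (n = 3 arrays a group) for the 47 tested pathway genes outside the members, by list. Bnip3 (-1.60), Hkdc1 (-1.32), P4ha2 (-1.20) and Eno3 (-1.18) lie farthest below 0 and Rragd (0.94, not called) and Rpia (0.81) farthest above.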

How the data were processed

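Total RNA of 3 parental and 3 HML2 cultures was measured on Affymetrix arrays. The deposited values are linear intensities, 1 MAS5 signal per probe set and array, per the submitters' processing notes. Version and settings, not given in the sources used here, were not inferred. The signals had been scaled to a common trimmed mean (2% of probe sets left out at each end), which removes any difference in total messenger RNA. MAS5 signals of dim probe sets are noisy, and 3 arrays a group limit the precision.

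Of 45101 probe sets, 64 were controls and were left out. The annotation, dated 2016, gave 1 symbol for 34945, several for 932 and none listed for 9160. Symbols were updated through RefSeq's GRCm38.p6 gene table, where 34741 were found. Another 4 probe sets list a member's symbol among several and were not used. The analysis used log2(signal + 50). A probe set entered where its signal averaged 100 or more across the 6 arrays, and the brightest by mean log2 value represented its gene. The test was limma 3.58.1, run in R 4.3.3 (lmFit, eBayes with an intensity trend, no covariates), with Benjamini-Hochberg adjustment over all 9361 genes. The fit was also run on simulated data with independent noise on each array and far fewer changed genes than were called here. Those data held no deviations shared by arrays of the same number, so they do not test the calls against such deviations.

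Replicate numbers were checked by correlating, across genes, deviations from the group means. Arrays of the same number gave 0.45, 0.34 and 0.24, all above the bound of 0.1. A fit with the numbers as a block was therefore an alternative, while the calls reported come from the fit without it. Parental replicate 2 and HML2 replicate 3, of different numbers, also gave 0.24. The labels do not say what a number stands for. The other alternatives were offsets of 16 and 100, no or a stricter signal filter (200), quantile normalization, median centring, the mean of probe sets, probe sets of unique type, eBayes without the trend, leaving out each array, and, added after the data were seen, keeping the mouse control probe sets (for Gapdh, together with each of the others).

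The members and the lists were chosen with earlier results of these data known. All members are named. From each outside list the rule named up to 4 called genes with the largest differences, filled to 2 by the brightest. Pdha1, Mpc1, P4ha1, Vegfa, Ero1a, Rragd, Mxi1 and Adm were chosen after their values were seen. So were per-array values beyond those of called members and of Slc2a1, Hk2, Gapdh, Pkm, Ldha and Hif1a. Promoters were searched by exact match on both strands.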

Additional observations from a re-analysis of the deposited data

How the results depend on the processing

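Of the 16 alternatives, all kept Slc2a3, Slc16a1 and Ddit4 called. Some could not change their values. Slc16a1 and Ddit4 had 1 probe set above the filter, so the alternatives in probe set choice used the same one. The fit with probe sets of unique type also used the same probe set for Slc2a3. Without the signal filter 1 member and 8 outside pathway genes were called lower (3 and 15 in the fit as reported). The replicate block called 8 outside genes higher (3 as reported). Over all genes the block called 1670 higher and 1831 lower (1155 and 1395 as reported). It also called Ndrg1 and Gapdh and changed no other member's call. The stricter filter gave medians of 0.50 for transporters (0.31 as reported) and 0.032 for flux regulators (-0.48), with fewer genes tested. Differences near 0 changed sign: with median centring Tpi1 (0.037), Pgam1 (0.028) and Ldha (0.040), with the mean of probe sets Tpi1 (0.026) and Egln1 (0.13), and with quantile normalization Pgk1 (-0.10). The causes were not tested.

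Leaving out 1 array gave 590.0 to 1577 genes called higher and 795 to 1845 lower (lowest without parental replicate 3, highest without HML2 replicate 1), 0 to 4 members and 7 to 19 outside genes called lower, and medians of -0.14 to -0.019 for all members and -0.35 to -0.019 for other HIF targets. The difference ran from -0.070 to 0.21 for Slc2a1, -0.34 to 0.056 for Pfkl, -0.084 to 0.082 for Tpi1, -0.041 to 0.059 for Pgk1, -0.20 to 0.15 for Pgam1, -0.082 to 0.091 for Ldha, -0.27 to 0.11 for Egln1 and -0.17 to 0.26 for Bhlhe40. For Hk2 against Hk1 it ran from -0.049 to 0.18, for Egln3 against Egln1 from -0.31 to 0.12, and for the Gapdh 3' to 5' ratio from -0.021 to 0.0018.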
